A study of Mus musculus with 20 samples.

Results

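The comparison described here is Hopx knockout (KO) against wild type (WT) in type 3 multipotent progenitors (MPP3), and it rests on 7 of the 20 RNA-sequencing libraries of the study. The libraries were chosen by the genotype and the cell type in their labels, which gave 3 KO MPP3 and 4 WT MPP3 libraries. All 7 came from bone marrow of C57BL/6 mice aged 8 weeks, sorted by flow cytometry and prepared with a Nextera XT kit. The KO group carried the labelled Hopx knockout and the WT group an intact Hopx, and no further allele or treatment was given for either. The other 13 libraries held the long-term stem-cell population (LT-HSC; 3 KO, 4 WT) and type 2 multipotent progenitors (MPP2; 3 KO, 3 WT) of the same 2 genotypes, strain and age. The labels name no animal, so p-values measure only the spread between these libraries, which may be partly technical.

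As background, MPP3 are short-lived multipotent cells downstream of the stem cell that mostly give rise to granulocytes and macrophages, and they carry transcripts of several fates at low level. Hopx encodes a small protein with a homeodomain that does not bind DNA. It acts through partner proteins, among them serum response factor, whose binding to the CArG box it is known to oppose, and histone deacetylase 2.

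The reads of Hopx and of Sva separated KO from WT in MPP3, and their RefSeq promoter windows (GRCm38.p6, 250 bases before to 50 after the start) are shown for that reason. The CArG box was searched by name on both strands and is in capitals where found. The first of 2 Hopx windows, chr5:77115074-77115373 on the minus strand, and the Sva window, chr6:42038144-42038443 on the plus strand, read:
Hopx: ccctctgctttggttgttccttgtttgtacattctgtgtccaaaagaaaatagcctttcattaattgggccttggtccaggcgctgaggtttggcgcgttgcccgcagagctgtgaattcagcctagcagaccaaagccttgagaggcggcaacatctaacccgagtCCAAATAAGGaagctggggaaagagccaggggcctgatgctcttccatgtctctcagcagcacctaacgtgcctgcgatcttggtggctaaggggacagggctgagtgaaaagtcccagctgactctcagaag
Sva: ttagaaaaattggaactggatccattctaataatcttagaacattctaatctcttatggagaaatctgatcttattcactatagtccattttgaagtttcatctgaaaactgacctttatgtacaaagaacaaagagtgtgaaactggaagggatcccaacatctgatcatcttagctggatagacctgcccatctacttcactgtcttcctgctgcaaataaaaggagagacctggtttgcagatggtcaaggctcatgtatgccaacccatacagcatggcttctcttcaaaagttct
The Hopx window held 1 match, beginning at position -83 from the start, and the Sva window and the second Hopx window held 0. Of all 32851 windows of this length, 535 (1.63%) held a match. A match is a stretch of letters and was not measured as a binding site.

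Hopx was read in each of the 4 WT MPP3 libraries and in 0 of the 3 KO MPP3 libraries, which matched the labels of these 7 libraries. Among the other populations, the library labelled WT LT-HSC replicate 4 was at 0, with 30.2, 58.9 and 37.1 in WT LT-HSC replicates 1 to 3. The gene is protein-coding and spans 77086988 to 77115121 of chromosome 5 in GRCm38, read from the minus strand. The normalised read count, the deposited value in which reads were divided by 1 size factor per library, was 23.2, 42.7, 30.3 and 11.7 in WT replicates 1 to 4. The groups do not overlap, with every KO library at 0. The 104 WT reads against 0 in KO gave a level at least 26.9-fold lower in KO, with a floor of 3 counts over the group, a bound that covers counting error only. The log2 fold change was -4.67 (SE 1.08), on log2(value + 1), a scale that understates changes of low values. Hopx did not pass the test over all genes (limma adjusted p = 1, unadjusted p = 0.000425). It passed in 1 of 34 other settings, without WT LT-HSC replicate 4 (limma adjusted p = 0.047). Hopxos, the antisense transcript that overlaps Hopx, was read in 1 KO and 2 WT libraries. Whether strand was used in counting is not stated in the labels, so its reads and those of Hopx cannot be told apart there. Of the 18 other genes tested within 1 Mb of Hopx, 0 were called and 0 had an unadjusted p under 0.05. Among them, Exoc1 had every KO library below every WT library (limma unadjusted p = 0.374), as did 1.82% of all genes.

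Reads in genes ran from 11163345 to 14711129 per MPP3 library, and 15826 to 20831 genes had at least 1 read. Mitochondrially encoded transcripts took 2.51 to 2.91% of the reads in KO and 1.62 to 4.77% in WT. By Xist and Y-linked transcripts, KO held 2 female libraries (replicates 1 and 3) and WT held 1 (replicate 2), so sex was unevenly spread over the groups. The sorting-gate genes Kit, the stem cell factor receptor, and Cd48 were present in all 7 libraries, at 1749 to 3735 and 4928 to 7860. Ly6a, a further gene of the gate, was 3572 in WT replicate 2 and 962 to 1191 in the other MPP3 libraries. Kit, Cd48 and the receptor gene Flt3 (13242) were also highest in WT replicate 2. Slamf1, the gene of CD150, was low at 0 to 32.5. Pearson correlations of log2 values across genes, which are not independent replicates, were 0.912 to 0.921 within KO, 0.847 to 0.932 within WT and 0.856 to 0.938 between the groups.

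WT MPP3 replicates 2 and 3 stood apart from the other 5 MPP3 libraries in the genes below. The medians of the gene lists are therefore given with and without them. The WT libraries left without the pair, replicates 1 and 4, are male, while KO replicates 1 and 3 are female. Every value without the pair is thus partly mixed with sex. WT replicates 2 and 3 were not alike: their correlation of 0.847 was the lowest between any 2 MPP3 libraries. Mitochondrially encoded transcripts took 4.77% of the reads in replicate 2 and 1.62% in replicate 3. Mpo, the peroxidase of primary neutrophil granules, was 13394 and 17304 in these 2 libraries, 106390 and 90037 in WT replicates 1 and 4, and 84728, 103540 and 98936 in KO. S100a8, a calcium-binding protein of mature neutrophils, was 10521 and 9036 in WT replicates 2 and 3, and between 21.0 and 141 in the other 5 libraries. Elane, neutrophil elastase, was 2.51 and 51.7 in the pair and 6702 to 16051 in the other 5. The 2 libraries were thus low in these primary granule transcripts and high in S100a8, but they did not share every mature neutrophil gene. Ngp, Ltf and Camp were 4482, 2552 and 533 in WT replicate 2, and 0, 35.6 and 0 in replicate 3. Retnlg and Mmp8, further neutrophil genes, were 593 and 782 in replicate 2, and 2442 and 502 in replicate 3.

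The erythroid factor Klf1 was 8.80 and 0 in WT replicates 2 and 3 and 515 to 2111 in the others. Replicate 3 further had 649 for the B-cell receptor gene Cd79a and 638 for Ms4a1 (CD20). Over the other 6 libraries these were at most 5.25 and 1.05. Mature neutrophil genes summed to 28702 and 20554 in WT replicates 2 and 3, against 409 to 830 in KO and 321 and 706 in WT replicates 4 and 1. In bulk samples, fewer cells of a type and less RNA per cell cannot be told apart.

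**Figure D1:**
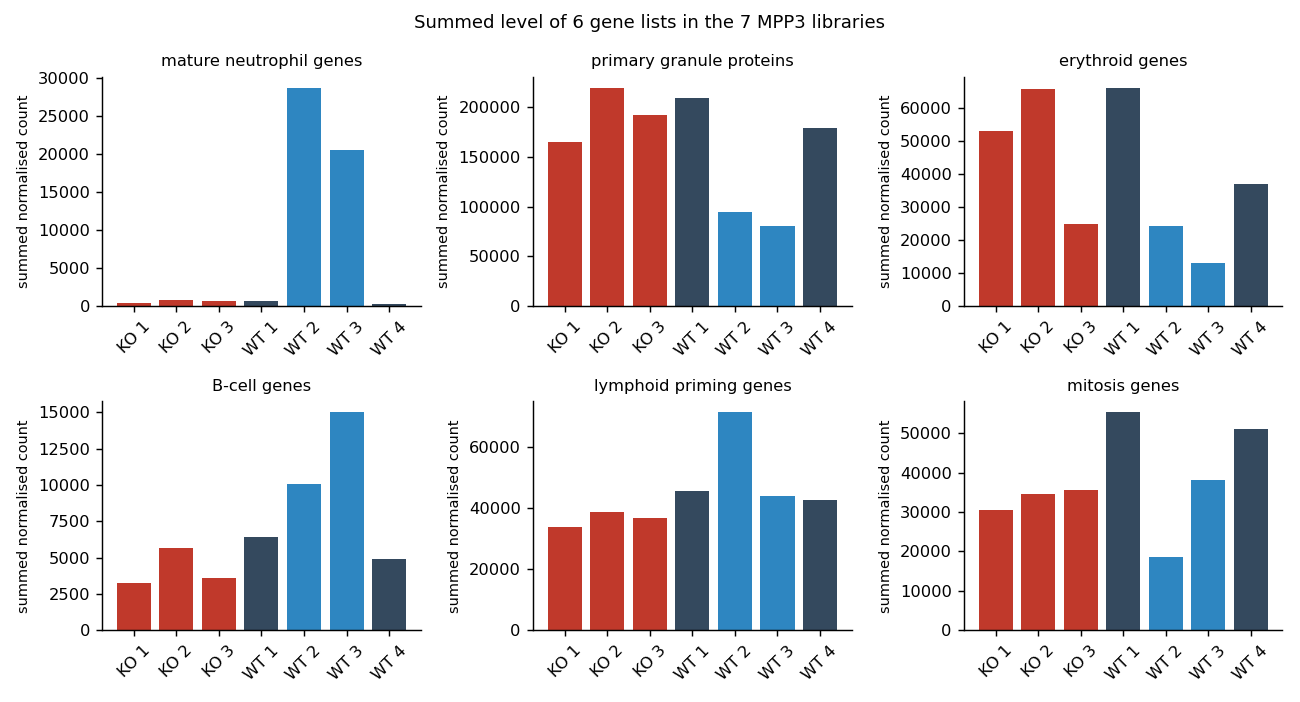
Bars give the summed normalised read count (linear axis from 0) of 6 gene lists in each of the 7 MPP3 libraries, with KO in red, WT replicates 1 and 4 in dark grey and WT replicates 2 and 3 in blue. Mature neutrophil genes reach 28702 and 20554 in the 2 blue bars, and lymphoid priming genes run from 33954 to 38621 in KO, below the 42550 to 71280 of WT.

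One gene passed the comparison of KO with WT. Of 17160 genes tested with limma over all 20 libraries, 1 was called higher in KO (0.00583%) and 0 lower (0%) at a Benjamini-Hochberg adjusted p under 0.05. Unadjusted p was under 0.05 for 195 genes higher and 152 lower. Together these are a smaller share of the 17160 genes than a threshold of 0.05 passes when no gene differs. They are therefore not read as a signal. The edgeR quasi-likelihood test on recovered reads called 0, with 160 higher and 154 lower at an unadjusted p under 0.05, and DESeq2 called 6 higher and 16 lower. The median fold change of all genes was 0.03 on the log2 scale.

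The called gene was Sva, seminal vesicle antigen, a secreted protein known from the male reproductive tract. It lies on chromosome 6 at 42038394 to 42042851, plus strand, and is protein-coding. Its normalised read count was 24.1, 86.9 and 113 in the 3 KO MPP3 libraries and 0, 1.26, 0 and 0 in the 4 WT libraries. Every KO library lay above every WT library. Sva rose by a log2 fold change of 5.69 (SE 0.84, 95% interval 3.91 to 7.46, limma adjusted p = 0.0468). With 239 KO reads against 1 WT read, the ratio was 309, with a 95% counting interval of 54.9 to 12200. The female KO libraries, replicates 1 and 3, had the lowest and the highest value.

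Sva showed the same on and off pattern in the other 2 populations. It had 314 reads in KO LT-HSC and 249 in KO MPP2, and 0 reads in both WT groups. Its fold change was 6.20 in LT-HSC (limma adjusted p = 0.0147) and 5.93 in MPP2 (limma adjusted p = 0.0499). The effect in MPP3 minus the mean of the other populations was -0.38 (SE 1.05, limma unadjusted p = 0.72). The populations may have been sorted from shared animals, so the 3 values are not independent of each other. Of the 13 other genes tested within 1 Mb of Sva, 0 were called and 0 had an unadjusted p under 0.05. Among them, Ephb6 was 188, 110 and 159 in KO MPP3 and 52.5, 89.2, 10.7 and 60.4 in WT MPP3. It had no overlap (limma unadjusted p = 0.0834), as did 2.11% of all genes on the higher side.

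The call of Sva in MPP3 lay close to the threshold. It was lost in 10 of 14 other settings in which Sva was tested and in 14 of 20 fits without 1 library, while the fold change stayed positive, at 2.31 to 7.94. The adjusted p was 0.245, 0.102 and 0.25 without WT MPP3 replicate 1, 3 or 4 (limma), and 0.416 and 0.28 without KO MPP3 replicate 2 or 3 (limma). It was 0.161 without WT MPP3 replicates 2 and 3 together (limma), 0.11 with sex as a covariate (limma) and 0.0568 to 0.0925 in the 9 fits that lost it without 1 LT-HSC or MPP2 library (limma).

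**Figure D2:**
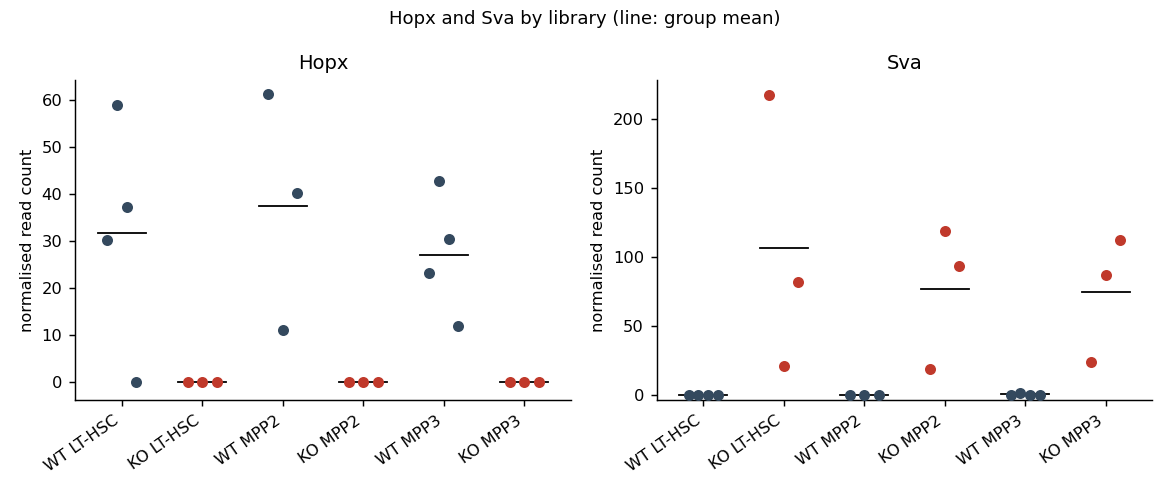
Points give the normalised read count of Hopx (left) and Sva (right) in each of the 20 libraries by population and genotype, WT in grey and KO in red, and lines give group means. Hopx is at 0 in every KO library and in WT LT-HSC replicate 4, and Sva in KO MPP3 lies between 24.1 and 113 while WT MPP3 stays at or below 1.26.

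Lymphoid priming genes, which early progenitors switch on before B- and T-cell commitment, had a lower summed level in every KO library than in every WT library. This held for 1 of 36 gene lists, beside the 2.11% and 1.82% of single genes with every KO library above or below every WT library, so nothing particular is read from it. The sum was 33954, 38621 and 36682 in KO and 45474, 71280, 43842 and 42550 in WT replicates 1 to 4. Of the 19 members tested, 18 had a lower mean log2 value in KO, with a median fold change of -0.52, beside 0.03 over all genes, of which 7855 of 17160 were lower. Called members numbered 0, and 3 members (Dntt, Rag2 and Satb1) had every KO library below every WT library, against 1.82% of all genes tested. Without Dntt, a member with a large share of the sum, the other 19 members listed summed to 31470, 33582 and 32241 in KO and 36777, 54329, 37128 and 36600 in WT.

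Dntt, the polymerase that adds bases at antigen-receptor joints, was 2484, 5038 and 4441 in KO and 8698, 16951, 6714 and 5950 in WT. Every KO library was below the lowest WT library, and WT replicate 2 was far above the rest. The log2 fold change was -1.20 with an SE of 2.27 over all 20 libraries (limma unadjusted p = 0.603). With the 7 MPP3 libraries alone the SE was 0.38 (limma unadjusted p = 0.0115, adjusted p = 1). The spread of Dntt in the other populations enters the first value: it ran from 0 to 7258 in WT MPP2, where replicate 3 carried it, and from 6.35 to 599 in KO LT-HSC.

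Rag2, a subunit of the recombinase, was 187, 123 and 93.6 in KO and 401, 746, 388 and 193 in WT. Its lowest WT value, in replicate 4, lay just above the highest KO value. Satb1, a chromatin organiser of early lymphoid cells, was 1891, 2147 and 2089 in KO and 2527, 3909, 2754 and 2669 in WT. Rag2 and Satb1 were chosen after their values were seen, and their fold changes were -1.58 (SE 1.80, limma adjusted p = 1) and -0.52 (SE 1.48, limma adjusted p = 1). With the MPP3 libraries alone the SEs were 0.47 and 0.18 (limma unadjusted p = 0.00846 and 0.018), and neither gene passed. As the genes were chosen for their values, these p-values are a description.

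Il7r, the interleukin-7 receptor needed for lymphocyte growth, was 8.40, 13.2 and 50.9 in KO and 440, 319, 47.2 and 161 in WT. KO replicate 3 and WT replicate 3 crossed, and the other values did not. Its fold change of -3.26 (SE 1.48) had an unadjusted p of 0.0413 and did not pass (limma adjusted p = 1). Rag1, the other recombinase subunit, had 0 reads in the 3 KO libraries and values of 8.07, 17.6, 0 and 32.5 in WT (fold change -3.12, limma adjusted p = 1). Ighm, the IgM heavy chain, was 2374, 4499 and 2774 in KO and 5200, 8172, 6305 and 3992 in WT. Flt3, a cytokine receptor of early lymphoid and dendritic progenitors, overlapped fully, with 6625 to 7392 in KO and 6518 to 13242 in WT.

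The level of this list also moved with WT replicate 2, the only female WT library. Without WT replicates 2 and 3, the median was -0.27 with 13 of 18 tested members lower, and 7 of them had no overlap. Genes with no overlap then made up 8.86% of all tested on the lower side. With the library-number range as a covariate the median was 0.00 (0.00287), so the direction of the list as a whole was not kept there, and with sex as a covariate it was -0.94. Without 1 MPP3 library it ran from -0.61 without WT replicate 1 to -0.28 without WT replicate 2. Within library numbers 115 to 120, Dntt was 5038 in KO replicate 2 and 8698 in WT replicate 1, and within 81 to 88 it was 4441 in KO replicate 3 and 6714 and 5950 in WT replicates 3 and 4.

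**Figure D3:**
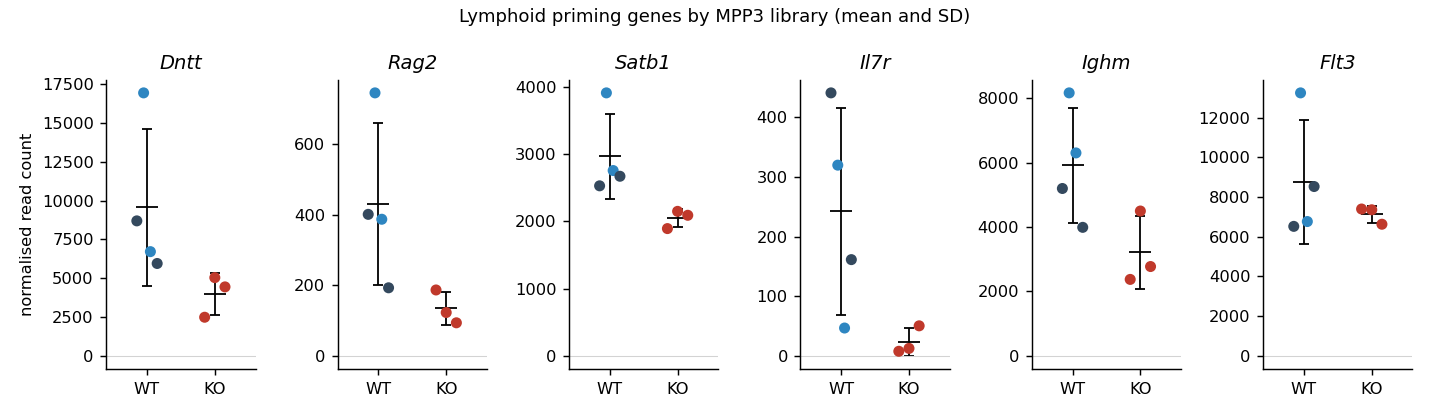
Points give the normalised read count of 6 lymphoid priming genes in the WT and KO MPP3 libraries, with black bars for the mean and SD, and WT replicates 2 and 3 in blue. For Dntt the KO values of 2484 to 5038 lie below the WT values of 5950 to 16951, and Flt3 overlaps.

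Medians of mature neutrophil, B-cell and erythroid genes shrank or turned when the pair of WT libraries was left out. Mature neutrophil genes had a median fold change of -3.10, with 12 of 13 tested members lower and 0 called, and 0.15 without WT replicates 2 and 3. Retnlg, a neutrophil-secreted protein, was 0 in all 3 KO libraries and 0, 593, 2442 and 0 in WT, and DESeq2 called it lower (DESeq2 adjusted p = 2.37e-05). B-cell genes were lower in 10 of 10 tested members. Their sum was 3232 to 5650 in KO, 6396 and 4905 in WT replicates 1 and 4, and 10044 and 14998 in WT replicates 2 and 3. The B-cell median was -1.40, and it was -0.19 without the pair and -1.60 without WT replicate 2 alone. Without 1 library it ran from -2.08 without WT replicate 4 to -0.95 without WT replicate 3, and for mature neutrophil genes from -4.47 without WT replicate 4 to -1.66 without WT replicate 2. Erythroid genes were higher in 17 of 19 (median 0.81), and without the pair in 6 of 19 (median -0.21). Without 1 library the erythroid median ran from 0.35 without KO replicate 1 to 1.44 without KO replicate 2.

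Primary granule genes gave a median of 0.47 over 14 tested members with 0 called, and -0.02 without WT replicates 2 and 3. Without 1 library it ran from 0.23 without WT replicate 2 to 0.57 without KO replicate 1. Ctsg, cathepsin G, was 5689 to 8476 in KO and 844 to 8038 in WT, and Prtn3, proteinase 3, was 8046 to 11617 in KO and 3825 to 9817 in WT. Prss57, a further granule serine protease, was 1102, 1316 and 1079 in KO and 591, 711, 594 and 824 in WT, with no overlap (fold change 0.78, SE 0.77, limma adjusted p = 1). Myeloid transcription factors were higher in 12 of 16, with 0 called. Their median was 0.26 (0.11 without the pair) and ran from 0.0482 without WT replicate 2 to 0.42 without WT replicate 3. Among them, Spi1 (PU.1), Cebpa and Irf8 had fold changes of 0.18, 0.47 and 0.09, and their groups overlapped. The monocyte receptor gene Csf1r was 445 to 1307 in KO and 188 to 1082 in WT.

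Monocyte and macrophage genes were higher in 11 of 16 (median 1.59), with 0 called, and without WT replicates 2 and 3 in 6 of 16 (median -0.30). Without 1 library the median ran from 0.53 without KO replicate 3 to 1.92 without WT replicate 4. Adgre1, which encodes F4/80, was 125, 135 and 41.8 in KO and 0, 18.8, 0 and 40.6 in WT (fold change 4.07, limma adjusted p = 1, unadjusted p = 0.0203). KO replicate 3 and WT replicate 4 nearly met. The complement genes C1qb and C1qc had fold changes of 4.95 and 3.15 and did not pass (limma adjusted p = 1 for each). C1qb was 278, 17.9 and 93.6 in KO and 0, 42.7, 0 and 0 in WT. Cxcl12, a chemokine of stromal cells, was 237, 34.9 and 0 in KO and 0 in all 4 WT libraries, while the stromal genes Col1a1 and Lepr were at most 2.51 and 0.91 in the 7 libraries. Mpeg1, a macrophage pore protein, went the other way at 107, 270 and 239 in KO and 826, 495, 318 and 643 in WT. The part of macrophage or stromal cells in these values was not tested.

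The summed level of mitosis genes was lower in every KO library than in WT replicates 1, 3 and 4, and higher than in WT replicate 2. The sum was 30503, 34637 and 35558 in KO, 55291 and 51078 in WT replicates 1 and 4, and 18692 and 38247 in WT replicates 2 and 3. Over the 7 libraries 15 of 22 members were lower, with a median of -0.10 and 0 called. Without WT replicates 2 and 3, an alternative chosen after the data were seen, 22 of 22 were lower (median -0.64). Of these, 21 had no overlap, against 8.86% of all genes tested, and 0 were called. The WT libraries left there were both male, so genotype is partly mixed with sex in these values.

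Top2a, the topoisomerase of dividing cells, was 4147, 3515 and 4549 in KO and 6661, 3400, 6509 and 6632 in WT (fold change -0.47, SE 0.31, limma adjusted p = 1). The proliferation marker Mki67 was 2063, 1364 and 1560 in KO and 2621, 1365, 2186 and 2789 in WT (fold change -0.40, SE 0.28, limma adjusted p = 1). Both overlapped only through WT replicate 2. With sex as a covariate the list's median turned to 0.13, and without WT replicate 1 or 4 it was 0.08 and 0.04. DNA replication genes were instead higher in 17 of 21 members with 0 called. Their median was 0.19 (0.10 without the pair) and ran from 0.0271 without WT replicate 2 to 0.23 without WT replicate 3.

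Cytosolic ribosomal protein genes were higher in KO by a small amount, in 35 of 36 members with a median of 0.16 and 0 called. Of all genes tested, 53.7% were higher. The summed level overlapped, at 228330 to 269580 in KO and 213100 to 243200 in WT. Without WT replicates 2 and 3, 30 of 36 members were higher (median 0.16). The members share the same libraries, so their number is not a number of independent tests. Over 22 other settings, which refit the same libraries, the median stayed between 0.12 and 0.25. Rplp0, a stalk protein of the large subunit, was 17952, 17215 and 15191 in KO and 15078, 14116, 14091 and 13424 in WT, with no overlap (fold change 0.24, SE 0.10, limma adjusted p = 1). Rps18 also had no overlap (fold change 0.26, SE 0.12, limma adjusted p = 1). Rpl5 was the exception at 620, 630 and 571 in KO and 739, 799, 1135 and 971 in WT (fold change -0.57, SE 0.28, limma adjusted p = 1). Ribosomal protein genes have many processed pseudogenes that can share their reads.

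Interferon response genes were higher in 19 of 24 members (median 0.24, 0 called), and in 23 of 24 without WT replicates 2 and 3 (median 0.42), 10 of them with no overlap against 9.59% of all genes tested. Usp18, the protease that removes ISG15, was 1547, 612 and 637 in KO and 365, 705, 454 and 321 in WT (fold change 0.94, SE 0.43, limma adjusted p = 1). Ifit1, an inhibitor of foreign RNA, was 1148, 362 and 337 in KO and 96.8, 814, 0 and 173 in WT (fold change 3.09, SE 1.57, limma adjusted p = 1). KO replicate 1 was the highest library for both, and WT replicate 2 stood above the other WT libraries. With sex as a covariate the list's median was -0.01, and without 1 library it ran from 0.0481 without WT replicate 4 to 0.38 without WT replicate 2.

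Genes tied to the Hopx protein by its known partners showed 0 calls. Of 21 tested targets of serum response factor, 11 were higher and 10 lower. The median was 0.06 (0.13 without the pair) and ran from -0.03 without WT replicate 2 to 0.14 without WT replicate 3. Fos, an immediate early gene, was 8351 to 11538 in KO and 797 to 12116 in WT (fold change 0.96, SE 0.78, limma adjusted p = 1). Tpm4, a tropomyosin, was 744, 957 and 676 in KO and 1278, 1210, 1443 and 1179 in WT, with no overlap (fold change -0.70, SE 0.41, limma adjusted p = 1). Hdac2, histone deacetylase 2, was 3928 to 4991 in KO and 4017 to 5952 in WT. The median of the list of targets was positive in 15 and negative in 7 of 22 other settings.

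Stem-cell markers were higher in 14 of 20 members, with 0 called. Their median was 0.24 (0.54 without the pair) and ran from 0.0945 without KO replicate 1 to 0.49 without WT replicate 2. Gprasp2, a sorting protein for receptors, was 141, 99.1 and 72.7 in KO and 54.5, 54.0, 0 and 28.9 in WT. Procr, the endothelial protein C receptor, was 176 to 285 in KO and 108 to 319 in WT. GIMAP genes, small GTPases of lymphocytes, were lower in 8 of 8. Their median was -0.79 (-0.23 without the pair) and ran from -0.89 without WT replicate 4 to -0.22 without WT replicate 2. Cell-cycle inhibitors and G1 cyclins were higher in 10 of 20, with 0 called and a median of -0.00275, and 0.00249 without the pair. Cdkn2c, the CDK inhibitor p18, was 216, 294 and 164 in KO and 331, 302, 439 and 298 in WT, with no overlap (limma adjusted p = 1). Gata1, the erythroid master factor, was 1035, 1054 and 528 in KO, 1256 and 634 in WT replicates 1 and 4, and 12.6 and 0 in WT replicates 2 and 3.

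The other cell-type lists had 0 called members each, and most of their medians moved when 1 library was left out. Dendritic cell genes were lower in 10 of 12. Their median was -1.08 (-0.47 without the pair) and ran from -2.55 without KO replicate 2 to -0.0925 without WT replicate 2, and was -0.18 and -0.20 without KO replicate 1 or 3. Cd74, the MHC class II chaperone, was 11.5, 3317 and 158 in KO and 59.5, 3653, 5125 and 3232 in WT. T and NK cell genes were higher in 6 of 8, with Cd3e, a defining T-cell gene, at 0 in all 7 libraries. Their median was 0.27 (0.39 without the pair) and ran from -0.0683 without WT replicate 1 to 0.51 without WT replicate 2. Megakaryocyte and platelet genes were higher in 11 of 19. Their median was 0.14 (0 without the pair) and ran from -0.0639 without WT replicate 1 to 0.20 without KO replicate 1. Mast, basophil and eosinophil genes were higher in 5 of 9, with Epx, the eosinophil peroxidase, at 0 throughout. Their median was 0.04 (0.00823 without the pair) and ran from 0 without WT replicate 1, 2 or 4 or KO replicate 2 or 3 to 0.30 without WT replicate 3. Stromal and endothelial genes were higher in 3 of 6. Their median was 0.27 (1.27 without the pair) and ran from -0.37 without KO replicate 1 to 0.79 without WT replicate 3. The genes of sorting antigens were higher in 3 of 10. Their median was -0.23 (-0.19 without the pair) and ran from -0.40 without WT replicate 3 to -0.00782 without WT replicate 2. Cytokine receptors were higher in 12 of 24 (median -0.01, and -0.0813 without the pair). Epor, the erythropoietin receptor, was 382, 542 and 80.9 in KO and 687, 0, 0.89 and 258 in WT, and so followed the pair of WT libraries.

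Signalling lists also had 0 called members. TGF-beta and BMP genes were lower in 14 of 20. Their median was -0.22 (-0.03 without the pair) and ran from -0.27 without KO replicate 3 to -0.0747 without WT replicate 2. Smad5, a BMP signal carrier, was 348 to 653 in KO and 458 to 1151 in WT. Wnt genes gave a median of 0.07 over 18, which turned to -0.10 without the pair and ran from -0.16 without WT replicate 3 to 0.17 without WT replicate 4. Ctnnb1, which encodes beta-catenin, was 2568 to 2986 in KO and 2889 to 4897 in WT. TNF and NF-kB genes were higher in 11 of 18. Their median was 0.09 (0.29 without the pair) and ran from -0.15 without KO replicate 1 to 0.31 without KO replicate 2. The NF-kB subunit gene Relb was 241, 128 and 99.0 in KO and 77.7, 62.8, 0.89 and 53.2 in WT, without overlap. Immediate early genes were higher in 16 of 18. Their median was 0.49 (0.14 without the pair) and ran from 0.0254 without WT replicate 2 to 0.87 without WT replicate 3. Among BCL2 family and death genes, 11 of 15 were higher (median 0.19), while without the pair 9 of 15 were lower and the median turned to -0.10. Without 1 library it ran from 0.0771 without WT replicate 3 to 0.25 without WT replicate 4. The survival gene Bcl2l1 was 299, 316 and 280 in KO and 248, 230, 170 and 209 in WT, without overlap.

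Lists of cell maintenance gave small medians and 0 calls. Nuclear genes of the respiratory chain were higher in 20 of 26. Their median was 0.06 (0.000344 without the pair) and ran from -0.00493 without KO replicate 2 to 0.14 without WT replicate 1. Glycolysis genes were higher in 16 of 20. Their median was 0.09 (0.0925 without the pair) and ran from 0.00511 without WT replicate 2 to 0.17 without WT replicate 3. Chaperone genes were higher in 16 of 20 (median 0.08), while without the pair 13 of 20 were lower (median -0.10). Without 1 library their median ran from -0.0332 without WT replicate 2 to 0.20 without WT replicate 1. Mitochondrially encoded genes were lower in 7 of 8. Their median was -0.17 (-0.19 without the pair) and ran from -0.42 without WT replicate 3 to 0.021 without WT replicate 2. The gene mt-Cytb, of respiratory complex III, was 59655 to 68218 in KO and 44140 to 108300 in WT. Hox genes and cofactors were lower in 11 of 17 (median -0.27), while without the pair 11 of 17 were higher and the median turned to 0.0338. Without 1 library it ran from -0.35 without WT replicate 4 to -0.0937 without WT replicate 2. Adhesion and homing genes were lower in 13 of 20. Their median was -0.08 (-0.0562 without the pair) and ran from -0.19 without WT replicate 1 to 0.0204 without KO replicate 1. Chromatin regulators were lower in 13 of 22 (median -0.02), and without the pair in 11 of 22 (median 0.0197). Asxl1, a Polycomb-associated factor, was 467, 442 and 516 in KO and 551, 678, 1062 and 523 in WT, without overlap (fold change -0.51, SE 0.26, limma adjusted p = 1). The 12 tested genes of Hopx partners, Hopx among them, had a median of -0.15 (-0.16 without the pair) and ran from -0.19 without KO replicate 3 to -0.0157 without KO replicate 1. Sex-linked transcripts, 6 in number, had a median of -3.64, and the groups held unequal numbers of female libraries.

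**Figure D4:**
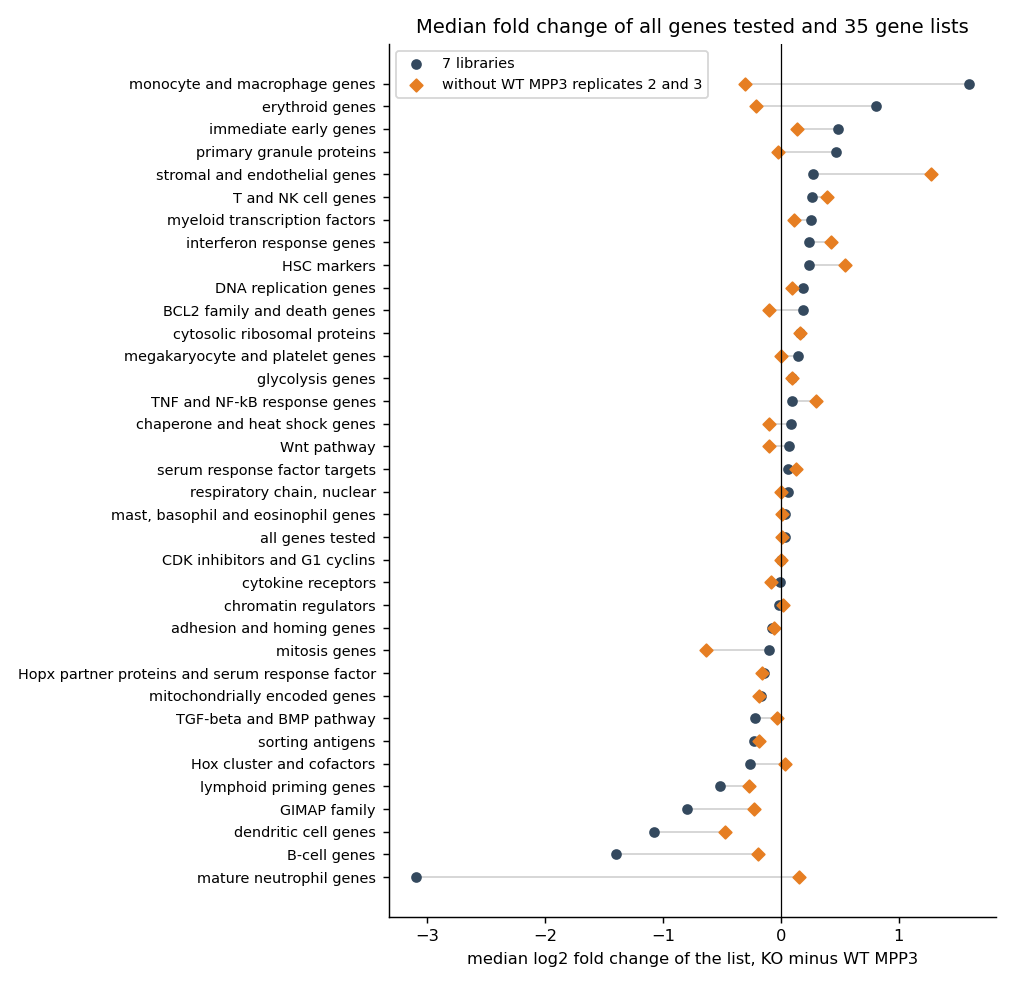
Each row gives the median log2 fold change (KO minus WT MPP3) of all genes tested or of 1 of 35 gene lists (sex-linked transcripts left out), from all 7 libraries in grey and without WT replicates 2 and 3 in orange. Mature neutrophil genes move from -3.10 to 0.15 and mitosis genes from -0.10 to -0.64, while ribosomal protein genes stay at 0.16.

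Below the threshold, 20 genes were selected by smallest p among those with no overlap and a mean value of at least 50, with 10 higher and 10 lower. Since they were picked for this contrast, their values are a description, and each had a limma adjusted p of 1.

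Of the genes with higher values, Siva1, a pro-apoptotic adaptor, was 2634, 1877 and 1760 in KO and 1642, 1367, 1448 and 1448 in WT (fold change 0.48, SE 0.16). Tor1a, an ATPase of the endoplasmic reticulum, was 1265, 1235 and 1289 in KO and 975, 946, 841 and 965 in WT (0.44, SE 0.16). The fold change was 0.55 for the mitochondrial insertase Oxa1l, 0.69 for the mitochondrial transporter Abcb8 and 0.86 for the fructose kinase Khk. It was 0.65 for Crtap, a collagen-modifying protein, and 0.76 for Commd10, a protein of endosomal sorting.

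Gp9, a subunit of the platelet von Willebrand factor receptor, was 192, 198 and 96.3 in KO and 72.6, 85.4, 53.5 and 59.5 in WT (fold change 1.20, SE 0.35). The adhesion receptor Adgrl2 had a fold change of 1.58 and was 26.7 in WT replicate 3. Ifi204, an interferon-inducible DNA sensor, was 145, 124 and 275 in KO and 9.08, 89.2, 0 and 9.92 in WT (fold change 4.10, limma unadjusted p = 0.014).

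Of the genes with lower values, Fan1, a nuclease that repairs crosslinked DNA, was 56.7, 44.4 and 46.3 in KO and 184, 134, 191 and 116 in WT (fold change -1.63, SE 0.46). Gatad2b, a subunit of the NuRD complex, was 557, 648 and 603 in KO and 800, 913, 1030 and 978 in WT (-0.62, SE 0.17), and DESeq2 called it (DESeq2 adjusted p = 0.0305). Hnrnpu, a nuclear RNA-binding protein, and Cdc16, a subunit of the anaphase-promoting complex, had fold changes of -0.44 and -0.36.

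Med12l, a Mediator subunit, had a fold change of -1.23, with 67.2, 128 and 164 in KO and 217, 412, 247 and 221 in WT. Mmrn1, multimerin of platelets, had -1.11, the Wnt co-receptor Lrp6 -0.99 and the zinc-finger gene Zfp866 -1.06. Rpl34-ps1, at -1.06, is a pseudogene whose reads may be shared with Rpl34 and is uncertain.

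**Figure D5:**
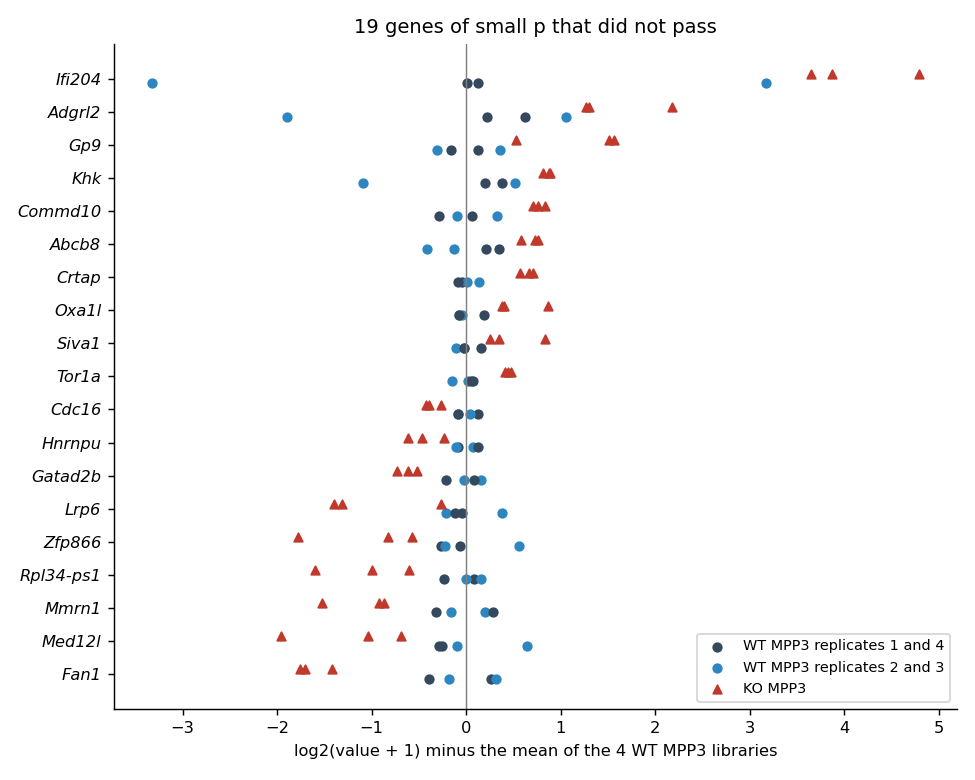
Points give log2(value + 1) in each MPP3 library minus the mean of the 4 WT libraries, for 19 of the selected genes that did not pass, with KO as red triangles, WT replicates 1 and 4 as grey circles and WT replicates 2 and 3 as blue circles. Every gene was picked for having no overlap, and the KO points of Fan1 lie apart from the WT points while 1 KO point of Lrp6 nearly meets them.

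Over all genes, 362 had every KO MPP3 library above every WT MPP3 library (2.11% of 17160) and 313 every KO library below (1.82%). Each share is smaller than a random ordering of so few libraries gives when no gene differs. Neither set is therefore read as a signal, and the values below are a description. Protein-coding genes made up 75.1% of the first set and 77.6% of the second, beside 75.9% of all tested. In LT-HSC the median fold changes of the 2 sets were 0.03 and -0.07, and in MPP2 -0.01 and -0.23, beside -0.03 and -0.10 over all genes. In MPP3 itself they were 0.76 and -0.63, which the choice of the genes fixes.

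Whether the KO effect in MPP3 differed from the mean effect in LT-HSC and MPP2 was tested directly, and limma called 0 of 17160 genes (0%). Unadjusted p was under 0.05 for 360 genes higher and 116 lower, again together a smaller share than this threshold passes when no gene differs. EdgeR called 0 (317 and 157 at an unadjusted p under 0.05) and DESeq2 called 18. Fan1 had a difference of -2.26 (SE 0.57, limma unadjusted p = 0.000919, adjusted p = 1), with fold changes of 0.52 in LT-HSC and 0.74 in MPP2. Adgre1 had fold changes of -1.44 in LT-HSC and -1.94 in MPP2 against 4.07 in MPP3 (limma unadjusted p of the difference = 0.00945, adjusted p = 1). Fan1 and Adgre1 were chosen for their values in MPP3, which enter this difference too, so these p-values are a description. The library labelled WT MPP2 replicate 3 had MPP3-like values of Dntt (7258), Il7r (442) and Satb1 (1791) and enters this test.

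The precision limits what could be seen. The 95% interval of the fold change lay within 1 log2 unit of 0 for 5780 genes of 17160, and the median SE was 0.23 for genes with a mean value of 1000 and above, 0.42 from 100 to 1000 and 1.16 from 10 to 100.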

How the data were processed

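RNA was sequenced from sorted bone-marrow cells. The submitters' processing notes name TopHat2 2.1.1, GRCm38, HTSeq 0.11.2 and DESeq (without a version). The deposited values are a normalised signal: in each library all counts share 1 divisor, per the values. The annotation release and strand setting are not stated in the labels. All values were whole multiples of 1 read (tolerance 1e-06, 100% of values), so reads were recovered. An automatic check could judge 18 of 20 libraries. The 5 HTSeq summary rows were left out. Of 45706 identifiers, 45143 matched a GENCODE M21 symbol.

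Limma 3.58.1 (R 4.3.3; trend, robust) was fitted on log2(value + 1), a pseudocount of 1, with 6 group means over 20 libraries and 17160 genes kept by edgeR's filter, with Benjamini-Hochberg adjustment. Groups came from the labels, and replicate numbers follow accession order. The test fits scaled signal, and a count test was an alternative. Alternatives used edgeR 4.0.16 and DESeq2 1.42.0 on recovered reads, voom, other pseudocounts, filters, scalings, covariates (library-number range, sex) and libraries left out. The scripts were tested on simulated counts.

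Named genes were Hopx, called genes, 10 uncalled genes per direction by smallest p (mean value of at least 50, no overlap, no provisional symbol), up to 4 members of smallest p per list, and fixed lineage genes. Not every selected gene is reported here. Other genes quoted were chosen after their values were seen. The members and all 36 gene lists were chosen with earlier results of these data known. Counting intervals and floors cover counting error only.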

Additional observations from a re-analysis of the deposited data

Results flagged for a closer look

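In 4 cases a single WT MPP3 library lay far from the other 3 of its group, by a test that chance alone meets in about 1 of 20 groups. Such cases arise by chance when several genes are searched, so their number is not read as a result. Sva was 1.26 in WT replicate 2 and 0 in the others, which is 1 read. Oxa1l was 968 in WT replicate 1 and 805 to 821 in the others, which lies below all 3 KO libraries (1100 to 1543). Ifi204 was 89.2 in WT replicate 2 and 0 to 9.92 in the others. Med12l was 412 in WT replicate 2 and 217 to 247 in the others. WT replicate 2 accounts for 3 of the 4 and is 1 of the 2 libraries whose neutrophil transcripts stood apart.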

How the results depend on the processing

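The 1 gene called higher became 0 with a pseudocount of 16, a mean value of at least 50, the MPP3 libraries alone, any of 3 edgeR fits, voom weights, the library-number range or sex as a covariate, the libraries numbered 52 to 54 left out, or WT MPP3 replicates 2 and 3 left out (an alternative chosen after seeing the data). It became 3 with no filter on low values (Sva, Abca6 and Rpl36-ps9) and 6 with DESeq2, and 0 to 2 when leaving out 1 library. Sdc2 was called with Sva without WT MPP3 replicate 2 (limma adjusted p = 0.0403), and Aldh3b2 in place of Sva without KO MPP3 replicate 3 (limma adjusted p = 0.0322). Genes called lower were 16 with DESeq2 and 0 to 1 when leaving out 1 library. Genes with a different KO effect in MPP3 were 18 with DESeq2 and 0 to 2 when leaving out 1 library, the 2 without KO MPP2 replicate 2. Genes with no overlap numbered 660 to 1005 higher and 561 to 867 lower when leaving out 1 MPP3 library, and 1717 and 1586 without WT MPP3 replicates 2 and 3, since fewer libraries overlap less often. The cause of the other changes was not tested. No paired analysis was possible because the replicate numbers follow accession order and the labels tie no library to an animal. For genes with a mean value of 10 to 100, the median 95% interval reached 2.44 log2 units to either side, and under 10 it reached 2.66.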
